A study of Mus musculus with 8 samples.

Results

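Cystatins, clade B serpins and the leukocyte inhibitor Slpi are protease inhibitors of myeloid cells, and their transcripts were followed here in a pair of cell populations sorted from mouse bone marrow. The group holds 10 genes chosen by name, of 18790 named genes in the deposited tables: the cystatins Cst3, Cstb, Stfa1, Stfa2 and Stfa3, the serpins Serpinb1a, Serpinb6a, Serpinb2 and Serpinb10, and Slpi. Of these, 9 had a row in the tables, and Stfa2 had none and was not analysed here.

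Both populations came from the femoral marrow of untreated C57BL/6 mice carrying Csf1r-EGFP, a transgene that reports activity of the promoter of the macrophage growth factor receptor. The CD11b+ cells were sorted as positive for CD11b, F4/80 and VCAM1, negative for Ly6G and low for the reporter. The CD11b- cells were sorted as positive for F4/80, VCAM1 and the reporter, and negative for CD11b. Each population had 4 libraries, labelled as biological replicates and sequenced by SmartSeq2, which amplifies full-length cDNA from small amounts of RNA. The series title frames the profiles as those of cells other than macrophages that carry pieces of macrophages. The labels used here give no age or sex.

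Cystatins block papain-like cysteine proteases, the cathepsins of the lysosome, by wedging into the active site. Cystatin C (Cst3) is secreted, while the stefins (Cstb and the Stfa genes) stay in the cytoplasm and nucleus. Clade B serpins are intracellular suicide inhibitors that trap a serine protease after it cuts their reactive loop, and in granulocytes they face the elastase, proteinase 3 and cathepsin G stored in granules. Slpi is a small secreted inhibitor of elastase and cathepsin G with whey acidic protein (WAP) folds.

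Total counts per library ran from 36604660 to 47951234 in CD11b+ and from 27462607 to 35160747 in CD11b-, so that every CD11b+ library was the deeper. Levels are the authors' CPM, counts scaled to each library's total, and carry no correction for gene length unless given per kilobase. A count of 0 allows a level of up to 0.0626 to 0.0820 CPM in a CD11b+ library and of up to 0.0853 to 0.109 CPM in a CD11b- library, at 3 counts. Of 11965 genes tested across the whole table, 29.7% passed an adjusted p of 0.05, 14.6% higher and 15.0% lower in CD11b+. The fold changes of all tested genes had a median of -0.01 on the log2 scale. Itgam, which encodes CD11b, was 34.8-fold higher in CD11b+ (edgeR adjusted p = 0.00215).

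Markers of the labelled macrophage identity were looked at as a description. None of 18 resident macrophage genes was at 0 in all libraries of either population, which is a weak check. Some were low: Siglec1 had means of 1.77 CPM in CD11b+ and 0.856 CPM in CD11b-, and Marco 1.80 and 6.20 CPM. The list includes the sort genes Vcam1 (means of 393 and 107 CPM) and Adgre1, both called higher in CD11b+. The summed level of the 18 genes was 1726 to 1986 CPM in CD11b+ and 1433 to 1910 CPM in CD11b-. Apoe was the largest part (means of 707 and 740 CPM). Beside them the CD11b+ libraries held 72625 to 101181 CPM of neutrophil granule genes, and the CD11b- libraries 32832 to 44208 CPM of erythroid genes. Within CD11b-, the libraries of replicates 1 and 2 stood apart in primary granule genes, at 6809 and 4470 CPM in sum against 1598 and 473 CPM in replicates 3 and 4. The same pair was higher in basophil and mast cell genes (4550 and 2504 CPM against 465 and 258 CPM) and in eosinophil genes (474 and 329 CPM against 71.2 and 82.4 CPM).

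The promoters of 5 members are shown: those of Cst3, Slpi and Serpinb2, which were called between the populations, and those of Stfa1 and Stfa3, because these closely alike start regions belong to genes that were detected in different libraries. Each stretch is the 250 bases before the annotated transcript start, 5′ to 3′ on the gene's strand, from RefSeq on build GRCm38.p6, which is a later build than the mm9 named for the tables. Capitals mark matches on either strand. The first motif searched was GAGGAA, the core of a PU.1-type ETS site. The second was TTGCNNAA, the letters of a C/EBP-type site, and the last was the TATA box, spelled TATAAA. No match overlapped another. The Cst3 stretch is chr2:148875513-148875762 on the minus strand, the Slpi stretch chr2:164356508-164356757 on the minus strand and the Serpinb2 stretch chr1:107511173-107511422 on the plus strand. The Stfa1 stretch is chr16:36276898-36277147 on the plus strand and the Stfa3 stretch chr16:36455393-36455642 on the minus strand.
Cst3: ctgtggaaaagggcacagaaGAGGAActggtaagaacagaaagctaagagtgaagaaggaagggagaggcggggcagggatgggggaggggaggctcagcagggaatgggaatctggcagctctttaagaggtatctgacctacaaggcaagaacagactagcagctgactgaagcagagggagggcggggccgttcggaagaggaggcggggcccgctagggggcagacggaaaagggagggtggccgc
Slpi: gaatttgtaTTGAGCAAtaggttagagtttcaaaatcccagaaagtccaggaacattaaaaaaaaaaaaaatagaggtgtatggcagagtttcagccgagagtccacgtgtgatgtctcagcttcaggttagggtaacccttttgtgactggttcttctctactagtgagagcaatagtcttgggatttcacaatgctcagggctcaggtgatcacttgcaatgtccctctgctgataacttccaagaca
Serpinb2: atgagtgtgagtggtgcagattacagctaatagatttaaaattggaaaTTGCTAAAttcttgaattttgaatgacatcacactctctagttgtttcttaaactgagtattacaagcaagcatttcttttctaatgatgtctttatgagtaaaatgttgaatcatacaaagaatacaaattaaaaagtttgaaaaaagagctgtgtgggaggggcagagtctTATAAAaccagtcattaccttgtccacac
Stfa1: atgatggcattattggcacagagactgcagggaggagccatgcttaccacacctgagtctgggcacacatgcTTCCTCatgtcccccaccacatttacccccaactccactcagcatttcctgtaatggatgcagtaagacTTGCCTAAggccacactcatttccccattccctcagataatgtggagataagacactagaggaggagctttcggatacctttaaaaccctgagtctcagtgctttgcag
Stfa3: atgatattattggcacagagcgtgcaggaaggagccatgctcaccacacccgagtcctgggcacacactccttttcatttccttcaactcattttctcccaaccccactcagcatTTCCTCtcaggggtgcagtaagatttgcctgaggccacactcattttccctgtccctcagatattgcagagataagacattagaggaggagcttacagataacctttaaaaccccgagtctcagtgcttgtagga

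The Cst3 stretch held a single ETS-type core, at position -230 from the start, and none of the other motifs. Slpi held 1 C/EBP-type match, at -241. Serpinb2 was the only one of the 5 with a TATA box, at -29, and also held a C/EBP-type match at -202. Serpinb2 has another annotated start further along, not shown. From that start the same TATA box lies at -116, and a different C/EBP-type match at -19. Stfa1 held an ETS-type core at -178 and a C/EBP-type match at -109, and Stfa3 held an ETS-type core at -135. Of 32851 RefSeq mouse promoters of the same length, 23.3% held the ETS-type core, 9.56% the C/EBP-type motif and 12.4% the TATA box. A match therefore describes letters, not binding. The Stfa1 and Stfa3 stretches were identical at 86.9% of aligned bases, and Stfa1 and Stfa2 at 83.0%. The promoters of Serpinb10 and Serpinb6a were also searched and held none of the 3 motifs.

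Of the 8 members that could be tested, 6 were higher in CD11b+, 0 were lower and 2 did not pass, beside 29.7% of all genes called. The libraries of the populations did not overlap for those 6, as for 36.4% of all tested genes. Stfa1, Serpinb2 and Serpinb10 passed the filter on low counts only through their CD11b+ libraries and so had to differ, which leaves 5 members that could have gone either way. Of these, Cst3, Serpinb1a and Slpi were higher, and Cstb and Serpinb6a were not called. In bulk RNA, fewer cells that carry a transcript and less of it per cell cannot be told apart.

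**Figure D1:**
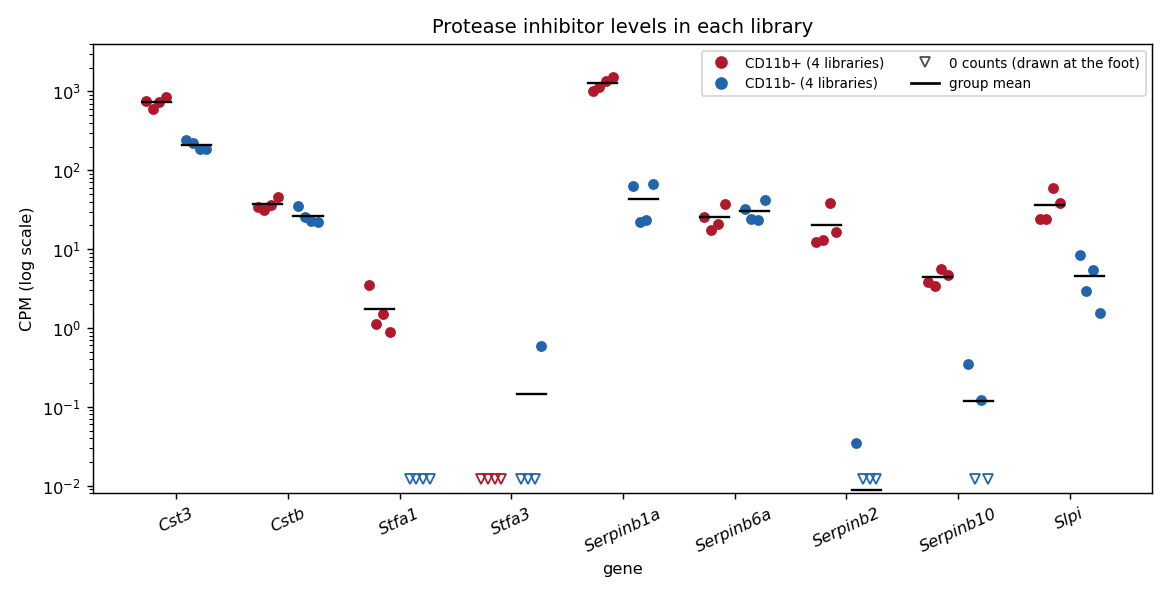
Level of each measured protease inhibitor gene in CPM (log axis) in each of the 4 CD11b+ libraries (red, left) and the 4 CD11b- libraries (blue, right), with lines at the group means; open triangles at the foot are libraries with 0 counts. Serpinb1a lies at 1009 to 1530 CPM in CD11b+ and 22.3 to 66.4 CPM in CD11b-, while the points of Cstb and Serpinb6a overlap.

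Among the cystatins, Cst3 was abundant in both populations and higher in CD11b+. Replicates 1 to 4 had 750, 601, 732 and 852 CPM in CD11b+, against 239, 225, 186 and 189 CPM in CD11b-. Every CD11b+ library lay above every CD11b- library, and the libraries within each population lay close together. The means were 734 ± 103 CPM in CD11b+ against 210 ± 26.4 CPM in CD11b- (SD, n = 4 each), a 3.60-fold difference (log2 1.85, SE 0.15, edgeR quasi-likelihood test, Benjamini-Hochberg adjusted p = 1.37e-05). The CD11b- mean was thus 28.6% of the CD11b+ mean.

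Cstb, the stefin that guards the cytoplasm against escaped cathepsins, overlapped between the populations. It had 34.7, 31.4, 36.8 and 46.0 CPM in CD11b+ replicates 1 to 4, against 35.7, 25.6, 23.0 and 22.1 CPM in CD11b-. CD11b- replicate 1, the library highest in primary granule genes, reached the CD11b+ range, and the other 3 lay below it. The difference was 0.53 on the log2 scale (95% interval -0.03 to 1.09, edgeR adjusted p = 0.153), and the interval includes 0.

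The stefin A genes sat near the limit of detection. Stfa1 had 3.47, 1.14, 1.50 and 0.884 CPM in CD11b+ replicates 1 to 4, from 127, 45, 72 and 36 counts, and not a single count in CD11b-. With 3 pooled counts taken as the limit for CD11b-, it was at least 70.1-fold higher in CD11b+ (edgeR adjusted p = 0.00782, 0.000208 to 0.101 over 14 alternatives), and at least 34.0-fold without the CD11b- pair rich in primary granule genes. Stfa3 had the reverse pattern in 1 library: 16 counts, or 0.583 CPM, in CD11b- replicate 4, and no count in the other 7. It was too low to test.

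Reads of this family are partly shared. In the annotation 22.5% of the 50-base stretches of Stfa1 also occur in another gene, 19.4% in BC100530, a stefin-like gene model, and BC100530 itself had 1.67, 0.127, 0.042 and 0.319 CPM in CD11b+ replicates 1 to 4 and none in CD11b-. Stfa1 and BC100530 were both highest in CD11b+ replicate 1, so the split of reads between them is uncertain. Stfa3 shares no 50-base stretch with another gene. The related Stfa2l1 was seen only in CD11b+ replicate 3, at 0.355 CPM.

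Among the serpin members, Serpinb1a, an inhibitor of elastase, proteinase 3 and cathepsin G that protects granulocytes from their own enzymes, was the most abundant. It had 1009, 1146, 1361 and 1530 CPM in CD11b+ replicates 1 to 4, against 62.9, 22.3, 23.5 and 66.4 CPM in CD11b-. The populations were far apart. The CD11b- libraries themselves split into a higher and a lower pair, replicates 1 and 4 against 2 and 3. The means of 1261 ± 230 CPM in CD11b+ against 43.8 ± 24.1 CPM in CD11b- (SD, n = 4 each) differed 30.1-fold (log2 4.91, SE 0.41, 95% interval 3.99 to 5.82, edgeR adjusted p = 1.77e-05). The higher CD11b- pair of Serpinb1a was not the pair rich in primary granule genes. Of its 50-base stretches 2.81% occur in relatives such as Serpinb1c.

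Serpinb6a, which inhibits cathepsin G and trypsin-like enzymes, did not follow Serpinb1a, a clade B serpin on the same chromosome. It had 25.7, 17.3, 20.9 and 37.0 CPM in CD11b+ replicates 1 to 4, against 31.9, 24.3, 23.7 and 42.5 CPM in CD11b-. The ranges overlapped, and replicate 4 was the highest in both populations. The difference of -0.24 on the log2 scale had a 95% interval of -0.95 to 0.48 (edgeR adjusted p = 0.651). In the annotation the whole span of Serpinb6a, introns included, overlaps the genes 1110046J04Rik, Nqo2 and Ripk1. Reads without strand could not be told apart where exons overlap, and whether they do was not checked.

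Serpinb2, plasminogen activator inhibitor type 2, an inhibitor of urokinase, was almost absent from CD11b-. It had 12.3, 13.2, 38.7 and 16.3 CPM in CD11b+ replicates 1 to 4, against 0.035 CPM in CD11b- replicate 1, a single count, and no count in the other CD11b- libraries. CD11b+ replicate 3 lay well above its 3 partners, and the same library had the highest summed eosinophil markers, 21329 CPM against 15050, 7342 and 15525 CPM in CD11b+ replicates 1, 2 and 4. The eosinophil markers Ccr3 and Siglecf did not peak there. That library was also the highest in CD11b+ for the neutrophil granule genes S100a8 (5011 CPM) and S100a9 (4014 CPM). The summed neutrophil granule list was highest in CD11b+ replicate 2. Pooled, 3496 Serpinb2 counts in CD11b+ and 1 count in CD11b- gave a depth-corrected ratio of 2624 (exact 95% counting interval 471 to 103682, edgeR adjusted p = 4.96e-05). Without CD11b+ replicate 3 the ratio was 1735 (311 to 68583). Without CD11b- replicate 1 Serpinb2 was at least 673-fold higher in CD11b+, and at least 424-fold without CD11b- replicates 1 and 2.

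Serpinb10, known as bomapin and expressed in haematopoietic cells, lies beside Serpinb2 on chromosome 1. It had 3.80, 3.39, 5.67 and 4.72 CPM in CD11b+ replicates 1 to 4, against 0.351 and 0.123 CPM in CD11b- replicates 1 and 3 and no count in CD11b- replicates 2 and 4. The CD11b+ libraries were all higher, and replicate 3 was again the highest. The means of 4.39 ± 1.02 CPM in CD11b+ against 0.119 ± 0.165 CPM in CD11b- (SD, n = 4 each) differed 37.4-fold (log2 5.23, SE 1.55, edgeR adjusted p = 0.0294). That call was lost in 7 of 14 alternatives, with an adjusted p of up to 0.0726, among them the removal of any 1 CD11b+ library or of CD11b- replicate 3. The difference was 96.3-fold without CD11b- replicate 1 and 65.1-fold without CD11b- replicates 1 and 2.

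The Serpinb2 and Serpinb10 models overlap on the same strand in the annotation. They share 243 stretches of 50 bases, 10.4% of those of Serpinb2 and 6.97% of those of Serpinb10. Reads from the shared part could be counted for either gene or for neither. The annotation also lists mouse Serpinb10 as a polymorphic pseudogene, a gene whose coding state differs between strains.

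Slpi, which blocks elastase and cathepsin G outside cells, had 24.1, 24.2, 59.1 and 38.8 CPM in CD11b+ replicates 1 to 4, against 8.45, 2.96, 5.50 and 1.57 CPM in CD11b-. All CD11b+ libraries were higher, with replicate 3 at the top, as for Serpinb2 and Serpinb10. The means of 36.5 ± 16.5 CPM in CD11b+ against 4.62 ± 3.03 CPM in CD11b- (SD, n = 4 each) differed 8.08-fold (log2 3.01, SE 0.58, 95% interval 1.71 to 4.32, edgeR adjusted p = 0.00322).

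Per kilobase of exon, the members spanned several orders of magnitude and 2 of them dominated CD11b+. There Cst3 had 580 CPM per kilobase (475 to 673 over the 4 libraries) and Serpinb1a 548 CPM per kilobase (438 to 664 over the 4 libraries), and their libraries overlapped. Cstb followed at 61.7 and Slpi at 31.0 CPM per kilobase, without overlap. Serpinb2 (8.58), Serpinb6a (4.66), Stfa1 (2.46) and Serpinb10 (1.26 CPM per kilobase) came next, each overlapping its neighbour in the order. The length counts every annotated exon base of a gene, not the transcript expressed. It was 5409 bases for Serpinb6a and 3490 for Serpinb10, against 2349 for Serpinb2, so the order rests partly on the annotation.

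In CD11b- the order differed. Cst3 led at 166 ± 20.9 CPM per kilobase, followed by Cstb at 44.1, Serpinb1a at 19.0 and Serpinb6a at 5.66, with no overlap between these neighbours. Slpi (3.91 CPM per kilobase) overlapped Serpinb6a. Stfa3, Serpinb10 and Serpinb2 were each under 1 CPM per kilobase, and Stfa1 had no count.

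Related inhibitors from lists of other cystatins, serpins and protease inhibitors moved in both directions. Of 31 other cystatins listed, 11 were in the tables and 1 could be tested. That gene, Cst7 (cystatin F of leukocyte lysosomes), had 103 ± 26.6 CPM in CD11b+ against 12.2 ± 4.87 CPM in CD11b- (SD, n = 4 each), 8.73-fold higher (edgeR adjusted p = 9.40e-05). Of 23 other clade B serpins, 20 were in the tables. Of these 2 could be tested and both were lower in CD11b+, beside 15.0% of all tested genes. Serpinb6b passed the filter on low counts only through its CD11b- libraries and so had to differ. Only Serpinb9 could have gone either way, and it went opposite to the called members.

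Those lower clade B serpins were Serpinb9 and Serpinb6b. Serpinb9, an inhibitor of granzyme B, had 8.72, 2.51, 7.42 and 1.16 CPM in CD11b+ replicates 1 to 4, against 45.8, 76.2, 56.7 and 40.9 CPM in CD11b-, a log2 difference of -3.43 (edgeR adjusted p = 0.00234). Serpinb6b, a paralogue of Serpinb6a, had 7.54, 0.228, 0 and 0 CPM in CD11b+, against 92.7, 76.0, 103 and 53.0 CPM in CD11b-. Its log2 difference was -5.36 (edgeR adjusted p = 0.0326), and -10.01 without CD11b+ replicate 1, which held nearly all of its CD11b+ counts. The Serpinb6b call was lost in 5 of 15 alternatives, with adjusted p up to 0.0946.

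Of 34 serpins of other clades, 19 were in the tables and 8 were tested. Of these 2 were higher and 0 lower, beside 14.6% and 15.0% of all tested genes. The list median was -0.73 on the log2 scale. Serpine2, protease nexin 1, an inhibitor of thrombin, had 94.1 ± 6.47 CPM in CD11b+ against 10.6 ± 2.50 CPM in CD11b- (SD, n = 4 each), 9.06-fold higher (edgeR adjusted p = 9.56e-06). Serpina11 had 5.10 ± 1.68 CPM in CD11b+ and no count in CD11b-, at least 210-fold higher (edgeR adjusted p = 0.00169). Serpina11 passed the filter on low counts only through its CD11b+ libraries and so had to differ. Serpina3g, the most abundant of the others, had 16.8 CPM in CD11b+ against 39.8 CPM in CD11b- and was not called (edgeR adjusted p = 0.0651). It was called lower in 3 of 15 alternatives: with DESeq2 (adjusted p = 0.0283), with a minimum of 10 CPM in 4 libraries (edgeR adjusted p = 0.0419) and without CD11b- replicate 4 (edgeR adjusted p = 0.0234).

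Of 38 inhibitors of other families, 26 were in the tables and 11 were tested. Of these 5 were higher and 1 lower, beside 14.6% and 15.0% of all tested genes. The list median was 1.78. Wfdc21, a WAP-fold gene like Slpi, had 188 ± 29.8 CPM in CD11b+ against 0.384 ± 0.616 CPM in CD11b- (SD, n = 4 each), 475-fold higher (edgeR adjusted p = 0.000162). That ratio was 2464 without CD11b- replicate 3 and 276 without CD11b- replicates 1 and 2. Cast, which encodes the calpain inhibitor calpastatin, was lower, at 138 ± 16.6 CPM in CD11b+ against 432 ± 90.2 CPM in CD11b- (SD, n = 4 each, log2 -1.60, edgeR adjusted p = 9.73e-05). Also higher were the Kunitz inhibitor gene Spint2 (3.43-fold), Itih5 (6.38-fold), Pi16 (48.5-fold, 103-fold without CD11b- replicate 3) and the metalloprotease inhibitor gene Reck. Reck was 15.0-fold higher, 80.5-fold without CD11b- replicate 4, and its call was lost in 7 alternatives, with 8.26-fold and an edgeR adjusted p = 0.0710 without CD11b- replicates 1 and 2. These 4 genes were picked out after their values were seen. Wfdc21 and Pi16 passed the filter on low counts only through their CD11b+ libraries and so had to differ. Reck had 0, 0.683 and 0.307 CPM in CD11b- replicates 1 to 3 and passed with the help of its CD11b+ libraries.

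**Figure D2:**
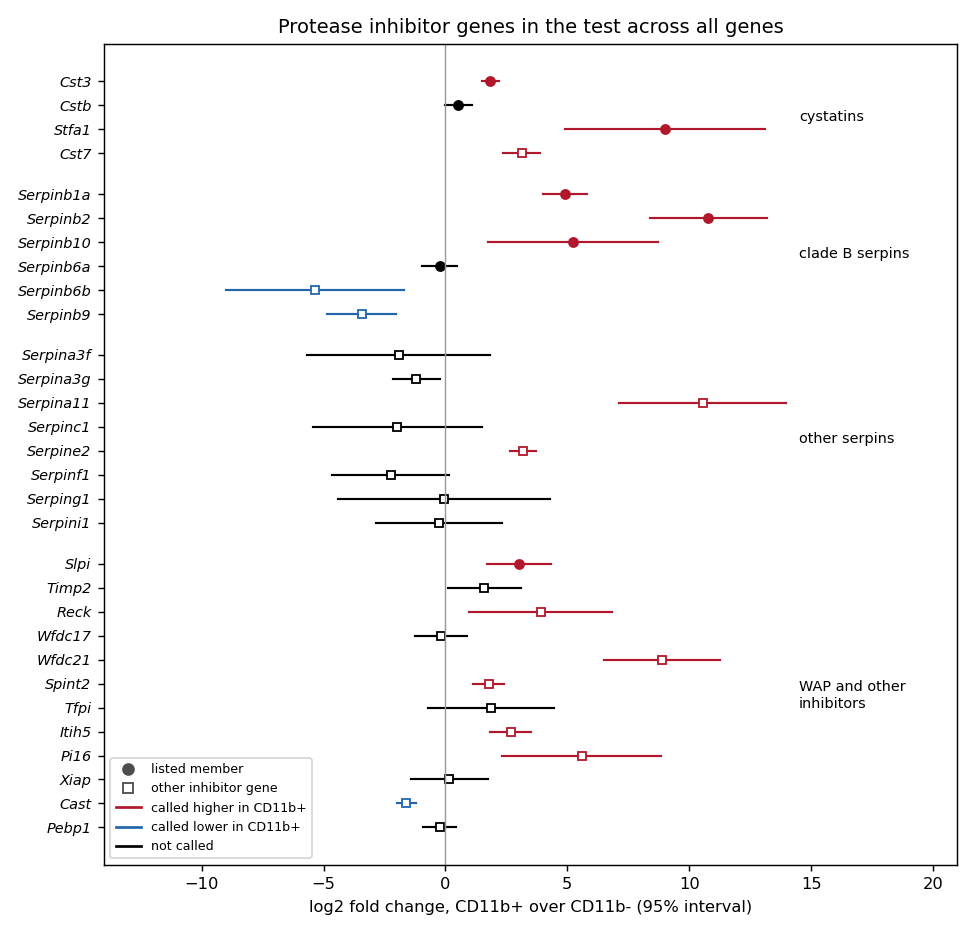
Log2 fold change (CD11b+ over CD11b-) with its 95% interval for the tested members (filled circles) and the other tested inhibitor genes (open squares), grouped by family; red is called higher in CD11b+, blue called lower and black not called. Cst3 (1.85) has the narrowest interval among the called members, and Serpinb9 (-3.43) and Serpinb6b (-5.36) lie on the opposite side from Serpinb1a (4.91); the points of Stfa1, Serpinb2 and Serpina11 depend on the prior count because CD11b- had 1 count or none.

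The proteases that these inhibitors bind changed too, and not in 1 direction. Ctsb, cathepsin B, had 1978 ± 87.1 CPM in CD11b+ against 4947 ± 390 CPM in CD11b- (SD, n = 4 each, log2 -1.29, edgeR adjusted p = 0.000117), whereas Cst3 was higher in CD11b+. Ctsl, cathepsin L, was low, at 3.30 ± 2.78 CPM in CD11b+ against 8.34 ± 3.75 CPM in CD11b-, and was not called (edgeR adjusted p = 0.273). Of 11 cysteine cathepsins and legumain listed, 10 were tested. Of these 2 were higher and 4 lower, beside 14.6% and 15.0% of all tested genes. The list median was -1.09 on the log2 scale. The higher ones were Ctsh (379 ± 102 CPM in CD11b+ against 66.2 ± 18.9 CPM in CD11b-, 5.87-fold, edgeR adjusted p = 9.16e-05) and Ctsz (449 ± 55.0 CPM in CD11b+ against 215 ± 32.7 CPM in CD11b-, 2.15-fold, edgeR adjusted p = 0.000411).

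The lower cathepsins besides Ctsb were Ctsf, Ctsc and Lgmn. Ctsf had 1.39 ± 2.34 CPM in CD11b+ against 78.7 ± 11.8 CPM in CD11b- (SD, n = 4 each), a log2 difference of -5.78 (edgeR adjusted p = 0.0124), and -8.30 without CD11b+ replicate 3. Ctsf passed the filter on low counts only through its CD11b- libraries and so had to differ. Ctsc, which activates granule serine proteases, had 57.3 CPM in CD11b+ against 101 CPM in CD11b- (edgeR adjusted p = 0.0284), a call lost in 6 alternatives. Lgmn had 46.1 CPM in CD11b+ against 91.9 CPM in CD11b- (edgeR adjusted p = 0.0404), lost in 5. Ctsc and Lgmn were picked out after their values were seen.

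The serine proteases of granules, the targets of Serpinb1a, Serpinb6a and Slpi, were higher in CD11b+, and Elane, Prtn3 and Ctsg also stand on the primary granule list. Elane, neutrophil elastase, had 20919, 18397, 17386 and 26833 CPM in CD11b+ replicates 1 to 4, against 803, 373, 104 and 46.9 CPM in CD11b-, 66.1-fold higher (edgeR adjusted p = 0.000481). Prtn3, proteinase 3, had 1842 to 2371 CPM in CD11b+ and 101, 69.1, 12.0 and 1.71 CPM in CD11b- replicates 1 to 4, 45.6-fold higher (edgeR adjusted p = 0.00262). Ctsg, cathepsin G, was 10.2-fold higher (158 ± 49.8 CPM in CD11b+ against 16.0 ± 10.3 CPM in CD11b-, edgeR adjusted p = 0.000459). In CD11b- all 3 were highest in replicate 1 and lowest in replicate 4, unlike Serpinb1a, which was highest in replicate 4.

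These folds depended on the CD11b- pair. Without CD11b- replicates 1 and 2, Elane was 276-fold, Prtn3 284-fold and Ctsg 19.7-fold higher in CD11b+, and without CD11b- replicate 1 alone Elane was 122-fold and Prtn3 74.0-fold higher. Of 23 leukocyte serine proteases and related genes listed, 12 were tested. Of these 5 were higher, beside 14.6% of all tested genes. Only 1, Dpp4, was lower (log2 -3.90, edgeR adjusted p = 0.00111), beside 15.0% of all tested genes. The other 2 higher genes, picked out after their values were seen, were Prss57, a granule protease (46.2-fold, 145-fold without the pair), and Plaur, the urokinase receptor and not itself a protease (15.0-fold). The basophil protease gene Prss34 had 2118, 1040, 1584 and 3674 CPM in CD11b+ replicates 1 to 4, against 4088, 2129, 397 and 192 CPM in CD11b-, and was not called (log2 0.37, edgeR adjusted p = 0.786). Without CD11b- replicates 1 and 2, its highest CD11b- libraries, it was called higher in CD11b+ (log2 2.82, edgeR adjusted p = 0.0103). Plau, urokinase, had 2.10 ± 1.81 CPM in CD11b+, and in CD11b- it was seen in replicate 3 alone, at 7.07 CPM. It was called higher in CD11b+ once that library was left out (edgeR adjusted p = 0.0221) and was not called otherwise.

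Inhibitor and protease levels were then set against each other within each library, as the log2 ratio of their CPM with 0.1 CPM added to both, for 11 pairs known to bind. The exact permutation test (two-sided, 4 libraries against 4) can go no lower than p = 0.0286, and pairs at that value had a Benjamini-Hochberg adjusted p of 0.0449 over the 11. By that test 7 pairs differed, 5 with a higher and 2 with a lower ratio in CD11b+, and 4 did not pass. Such a difference is in essence the inhibitor's log2 difference less the protease's. It thus restates the differences above and is no separate evidence about the inhibitor. Pairs that share a gene are not independent. An adjusted p under 0.05 at that value takes at least 7 pairs, and no pair was called once CD11b+ replicate 4 was left out, nor once replicate 1, replicate 3 or replicates 1 and 2 of CD11b- were left out.

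The ratios of Cst3 and Cstb to Ctsb and Ctsl were higher in CD11b+. Cathepsins that were themselves higher in CD11b+, Ctsh (5.87-fold) and Ctsz (2.15-fold), were not paired with them. The ratio of Cst3 to Ctsb was 0.397, 0.293, 0.382 and 0.415 in CD11b+ replicates 1 to 4, against 0.0468, 0.0478, 0.0345 and 0.0414 in CD11b-, a mean difference of 3.12 on the log2 scale or 8.72-fold (exact permutation p = 0.0286, adjusted p = 0.0449). The populations were wide apart, and each spread little. For Cstb to Ctsb the difference was 1.82, or 3.52-fold, although Cstb itself was not called. The larger part of it was the lower Ctsb (log2 -1.29, against 0.53 for Cstb). Against Ctsl the differences were 3.42 for Cst3 and 2.11 for Cstb, with the same exact permutation p and adjusted p. The call for Cstb to Ctsl was lost in 5 of 8 removals of 1 library, also without CD11b- replicate 2 or replicate 4 (adjusted p = 0.0786 in each).

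Of 6 ratios to granule proteases, 2 were lower in CD11b+ and 4 were not called. Serpinb6a itself was not called (log2 -0.24), while Ctsg was higher in CD11b+ (log2 3.35). Serpinb6a to Ctsg was 0.193, 0.126, 0.164 and 0.160 in CD11b+ replicates 1 to 4, against 1.10, 1.27, 2.30 and 7.38 in CD11b-, 13.9-fold lower. Slpi to Elane was 12.2-fold lower (log2 difference -3.61), both with an exact permutation p = 0.0286 and adjusted p = 0.0449. Without CD11b- replicates 1 and 2 these log2 differences were -4.70 for Serpinb6a to Ctsg and -4.72 for Slpi to Elane, and 4 libraries against 2 cannot go below an exact permutation p of 0.0667. Slpi to Ctsg differed by -0.39 (exact permutation p = 0.457, adjusted p = 0.457).

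Serpinb1a, the most abundant serpin among the members, kept a narrow ratio to its targets in CD11b+ and a wide one in CD11b-. Serpinb1a to Elane was 0.0482, 0.0623, 0.0783 and 0.0570 in CD11b+ replicates 1 to 4, against 0.0784, 0.0601, 0.227 and 1.41 in CD11b-. The CD11b- replicates 1 and 2, rich in primary granule genes, lay inside or next to the CD11b+ range, and replicates 3 and 4 lay above it. The difference of -1.71 did not pass (exact permutation p = 0.114, adjusted p = 0.157). It was -3.23 without CD11b- replicates 1 and 2 and -0.76 without CD11b- replicate 4, and passed without CD11b- replicate 2 (adjusted p = 0.0449).

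The other Serpinb1a pairs showed the same CD11b- spread. Serpinb1a to Prtn3 was 0.548 to 0.713 in CD11b+, against 0.626, 0.324, 1.95 and 36.7 in CD11b- replicates 1 to 4 (log2 difference -1.64, exact permutation p = 0.371, adjusted p = 0.409), and the difference was -3.75 without CD11b- replicates 1 and 2 and -0.22 without CD11b- replicate 4. Serpinb1a to Ctsg was 6.58 to 10.6 in CD11b+, against 2.17, 1.17, 2.27 and 11.5 in CD11b- (log2 difference 1.51, exact permutation p = 0.143, adjusted p = 0.175), and 2.18 with an adjusted p of 0.0449 without CD11b- replicate 4. Without CD11b- replicates 1 and 2 it was 0.67 (adjusted p = 0.467). The fifth higher pair, Serpinb2 to Plau, differed by 4.99, with both genes at or near 0 in CD11b- apart from Plau in replicate 3. The difference was 3.55 with 1 CPM added, 6.64 without CD11b- replicates 1 and 2, 5.62 without CD11b- replicate 1, 3.42 without CD11b- replicate 3 and 4.29 without CD11b+ replicate 4, and it passed only in the first of these.

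**Figure D3:**
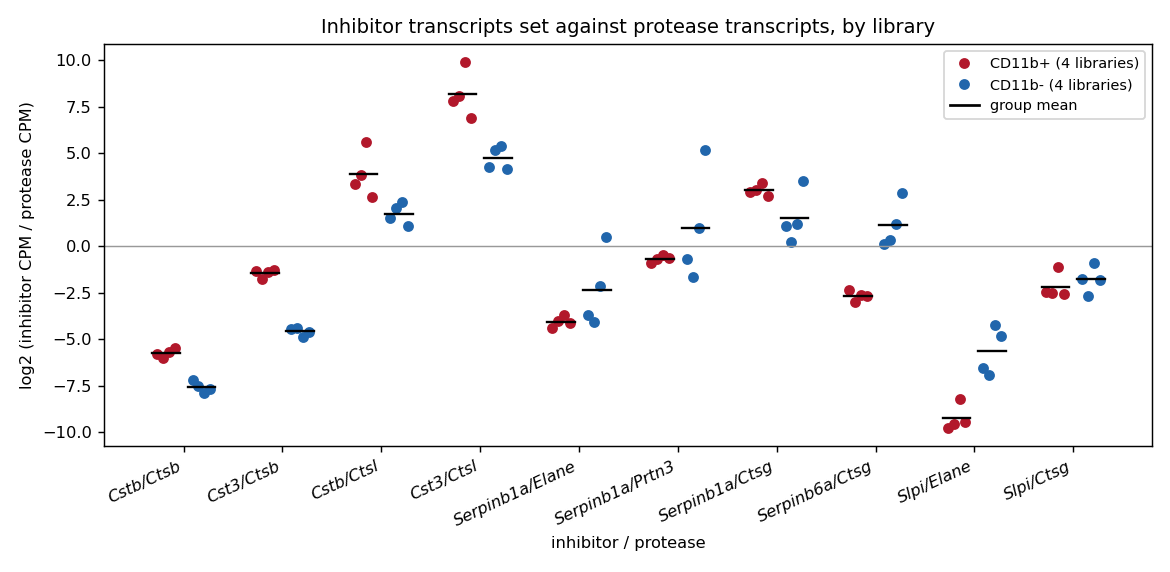
Log2 ratio of inhibitor CPM to protease CPM (0.1 CPM added to both) in each CD11b+ library (red, left) and each CD11b- library (blue, right) for 10 pairs, with lines at the group means; 0 marks equal CPM. Cst3/Ctsb is separated by 3.12, Slpi/Elane by -3.61, and the CD11b- points of Serpinb1a/Elane and Serpinb1a/Prtn3 spread widely around tight CD11b+ points.

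Many marker genes of granulocytes and monocytes were, like the called members, higher in CD11b+. Of the tested genes, 12 of 15 neutrophil granule and 6 of 6 primary granule genes were higher. So were 7 of 10 eosinophil and 5 of 10 monocyte genes. Of 18 resident macrophage genes 3 were higher, among them the sort genes Vcam1 and Adgre1, and 3 lower. Of all tested genes 14.6% were higher and 15.0% lower. Itgb2l, Ear1, Ear2, Ear6, Alox15, F13a1 and Tgfbi passed the filter on low counts only through CD11b+, so their direction was largely set by it. Of 9 tested basophil and mast cell genes 1 was higher, and their sums overlapped, at 1648 to 4556 CPM in CD11b+ and 258 to 4550 CPM in CD11b-. Summed primary granule genes stood at 58096 to 85384 CPM in CD11b+ and 473 to 6809 CPM in CD11b-, eosinophil genes at 7342 to 21329 CPM in CD11b+ and 71.2 to 474 CPM in CD11b-, and monocyte genes at 483 to 743 CPM in CD11b+ and 74.6 to 99.6 CPM in CD11b-. Of the markers of the neutrophil granule, primary granule, eosinophil, monocyte and resident macrophage lists in the tables, Itgb2l was the only one at 0 in all CD11b- libraries, and none was at 0 in all CD11b+ libraries. Ly6g was not analysed here. The part of these cell types in the levels of Serpinb1a, Slpi, Serpinb2 or any other member was not tested.

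**Figure D4:**
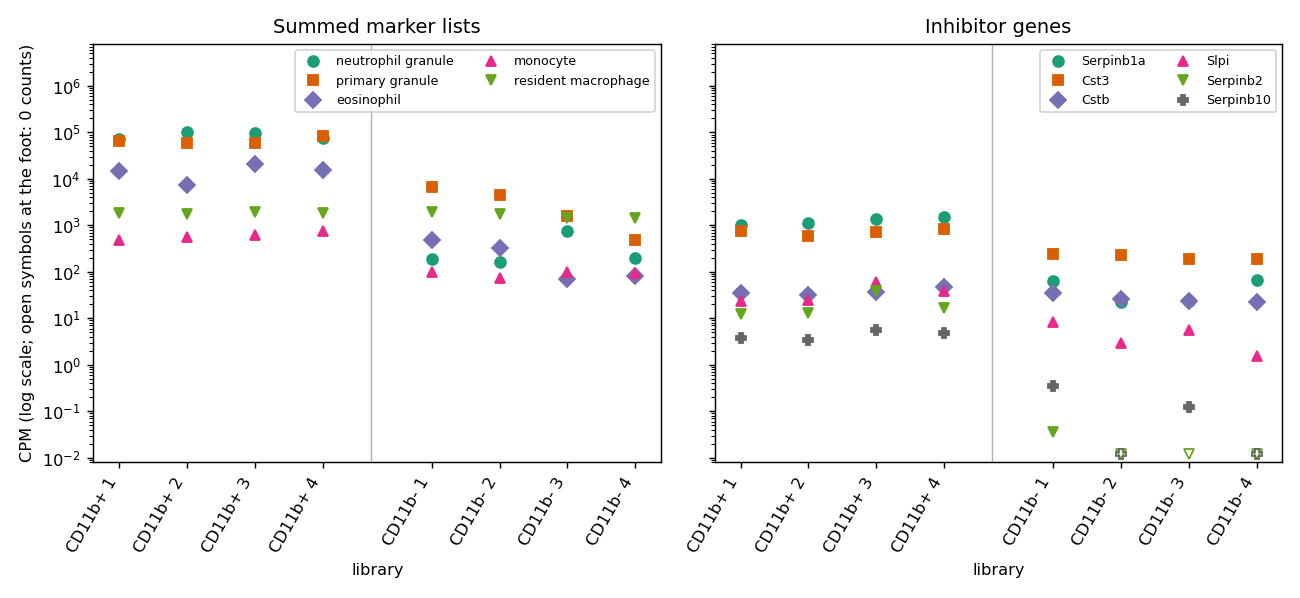
Summed CPM (log axis) of 5 marker lists (left panel) and CPM of 6 inhibitor genes (right panel) in each of the 8 libraries, CD11b+ 1 to 4 before CD11b- 1 to 4; open symbols at the foot mark 0 counts. The sum of resident macrophage genes stays between 1433 and 1986 CPM, although 3 of its 18 genes were called higher and 3 lower in CD11b+. The granulocyte lists shown, Serpinb1a, Slpi, Serpinb2 and Serpinb10 are lower in every CD11b- library.

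The tested genes whose levels ran most like each member, by Pearson r of log2(CPM + 1) over the 8 libraries among 3963 genes of at least 50 CPM, are given as a description. For genes called between the populations this r mostly carries that difference, and all genes share the same 8 libraries. Serpinb1a ran with Ccdc125 (r = 0.998) and Adssl1 (0.997), and Cst3 with the chemokine gene Ccl6 (0.997) and the annexin gene Anxa5 (0.995). Serpinb2 ran with the eosinophil ribonuclease gene Ear6 (0.994) and with Mgat2 (0.994). Serpinb10 ran with the related Ear1 (0.997) and the lipoxygenase gene Alox15 (0.996).

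Alox15, like Serpinb2, Serpinb10 and Slpi, was highest in CD11b+ replicate 3, at 1766 CPM against 653, 520 and 944 CPM in CD11b+ replicates 1, 2 and 4. Ear6 stood at 362 CPM in CD11b+ replicate 3 and 101 to 163 CPM in the others, and Ear1 at 305 CPM against 74.5 to 155 CPM. Slpi ran with Commd2 (0.985) and the myeloid receptor gene Cd300lb (0.982). The likeness was lower for the uncalled members: Cstb ran with St13 (0.969) and Coa3 (0.967), and Serpinb6a with Rps27l (0.963) and the translation factor gene Eif3e (0.945). Alox15, Ear1 and Ear6 also stand on the eosinophil list, where Ccr3 and Siglecf did not peak in CD11b+ replicate 3. The Ear genes are near copies of each other, so their split of reads is uncertain.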

How the data were processed

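RNA from 4 CD11b+ and 4 CD11b- sorted bone marrow populations was compared. For each library the authors deposited whole-number counts per gene symbol, under a file name that calls them FPKM, and for all 8 libraries a table of CPM, which the counts scaled to each library's total gave back within 0.0005. The submitters' processing notes name TopHat2, HTSeq 0.10.0, DESeq2 and mm9 without saying what each was used for. The sources used here do not give the gene annotation or how reads mapping to several places were counted. SmartSeq2 marks no strand. Of 18817 rows, 27 named no gene and held 0.205% to 0.514% of counts. They stayed out of tests.

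Counts were tested with edgeR 4.0.16 (R 4.3.3): TMM scaling, filterByExpr (minimum count 10, minimum total 15), quasi-likelihood test, prior count 0.125 and Benjamini-Hochberg adjustment over all tested genes at 0.05, with no covariate. P-values measure the spread between replicates labelled as biological. No 2 libraries agreed within sampling noise (chi-square over degrees of freedom 130 to 229). The script was tested on simulated counts. A pooled ratio divides summed counts by summed totals. Its exact 95% interval and the floor of 3 counts cover counting error only. Exon lengths, merged over all annotated transcripts of a gene, came from GENCODE M21 (96.3% of named genes), promoters from RefSeq. Alignments and exact tests used Python (scipy).

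The members, lists, pairs and alternatives were chosen with earlier results of these data known. An untested cystatin-like gene model with no standard symbol was left off the list of other cystatins after its values were seen. Genes named were the members, the genes of the sort, the proteases of the pairs, in each list the called gene with the largest fold in each direction and the 2 most abundant, and the 2 genes most like each member. Of the sort genes, Adgre1 and Vcam1 were called higher (4.10-fold and 3.84-fold), as was Csf1r (2.42-fold, lost in 3 alternatives). Csf1r RNA was thus higher in the population sorted as low for the Csf1r-EGFP reporter (means of 85.2 CPM in CD11b+ and 35.8 CPM in CD11b-). Alternatives were DESeq2 1.42.0 (4247 of 11884 genes called), no filter, RLE size factors, a minimum of 10 CPM in 4 libraries, a prior count of 1, a pseudocount of 1 CPM, the replicate number as a block, and leaving out each library or the 2 CD11b- libraries highest in Mpo.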

Additional observations from a re-analysis of the deposited data

Results flagged for a closer look

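In groups of 4 libraries, 1 library can stand apart from its 3 partners, which Dixon's criterion finds in about 5% of groups by chance. Here it did so in 15 of the 111 groups checked. A group with 1 library above 0 and its 3 partners at 0 is always flagged. That was so in CD11b- for Stfa3, Serpinb2, Plau, Ear6 and Ear1, so the 15 cannot be weighed against the 5%. Among the members, Serpinb2 stood at 38.7 CPM in CD11b+ replicate 3, with 12.3 to 16.3 CPM in the other CD11b+ libraries, and at 0.035 CPM in CD11b- replicate 1 with 0 in the others. Stfa3 stood at 0.583 CPM in CD11b- replicate 4 and at 0 in the other CD11b- libraries.

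Among the proteases, CD11b+ replicate 4 was apart for Prtn3, at 2371 CPM against 1842 to 1909 CPM, and for Ctsg, at 232 CPM against 128 to 138 CPM. Plau was at 7.07 CPM in CD11b- replicate 3 and at 0 in its partners. Ctsf was at 4.86 CPM in CD11b+ replicate 3 (0 to 0.712 CPM in its partners), and the serpin gene Serpinb6b at 7.54 CPM in CD11b+ replicate 1 (0 to 0.228 CPM). Of the genes that ran like members, St13 was at 70.7 CPM in CD11b- replicate 1 (42.7 to 44.3 CPM in its partners), Alox15 at 4.03 CPM there (0 to 0.569 CPM), Ear1 at 2.07 CPM there (0 in its partners) and Ear6 at 0.085 CPM in CD11b- replicate 2 (0 in its partners).

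Among the log2 ratios, Slpi to Ctsg was -1.11 in CD11b+ replicate 3 (-2.58 to -2.46 in its partners). Serpinb2 to Plau was 5.68 in CD11b+ replicate 4 (2.74 to 3.06) and -6.16 in CD11b- replicate 3 (0 to 0.43), where 1 or both genes were near 0. CD11b- replicate 1 holds 4 of these 15 values and is also the library with the most primary granule transcripts, 6809 CPM in sum. Whether those are connected was not tested.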

How the results depend on the processing

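Cst3, Serpinb1a, Serpinb2 and Slpi were higher in CD11b+ in all 15 alternatives, and Cstb and Serpinb6a were called in none. Between 4 and 6 members were called, and 3035 to 4247 genes. Replicate numbers showed no clear pairing: deviations correlated from 0.0022 to 0.043 within a number and from -0.034 to 0.020 across numbers. Of 8 libraries 2 matched their own number best, and these values cannot exclude a pairing. With the replicate block 3195 genes were called, and Stfa1 (log2 8.87, edgeR adjusted p = 0.101) and Serpinb10 (6.51, adjusted p = 0.0567) were lost. Serpinb10 was also lost with no filter (5.24, adjusted p = 0.0503) and ranged from 4.83 to 6.59 with single libraries left out. Neither could be tested with a CPM of at least 10 in 4 libraries. Among related genes, the number lower was 1 for other clade B serpins without the CD11b- pair highest in Mpo (1 to 2 with 1 library left out) and 2 to 4 for cathepsins with 1 library left out. It was 2 for serine proteases with no filter, and 1 other serpin was higher under the CPM minimum. The pairs called were 0 without the Mpo pair and 0 to 7 with 1 library left out. Plau, never called lower, reversed to -0.79 without the Mpo pair and ran from -0.50 to 9.30 with 1 library left out, called at 9.30 without CD11b- replicate 3 (edgeR adjusted p = 0.0221). Prss34 ran from -0.016 to 1.25 with 1 library left out, uncalled, and was called at 2.82 without the Mpo pair (edgeR adjusted p = 0.0103). The cause of these changes was not tested. Low counts limit Stfa1, Stfa3 and Serpinb10 in CD11b-.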
